A study of Mus musculus with 6 samples.

Results

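The mitochondrial carrier family Slc25 was described here in cultured neonatal mouse heart cells under hypoxia, with and without fibroblast growth factor 21 (FGF21). Its members were the genes whose symbol starts with Slc25a in the platform annotation, on rows that carry a single symbol. There were 46 of them among 22180 named genes, and each stood on 1 row of the array. A further row, shared by Slc25a35 and the neighbouring gene Rangrf, was left out because it carries several names.

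The cells came from hearts of C57BL/6 mice aged 1 day. They were enriched for cardiomyocytes by a pre-plating step, which removes cells that attach quickly. The FGF21 group (3 arrays) was held for 12 h at 2% oxygen, 5% CO2 and 93% N2 with FGF21 at 1 µg/ml, and the control group (3 arrays) was held in the same hypoxia without it. Both groups were hypoxic and no array of cells in normal oxygen was analysed, so the comparison is of FGF21 within hypoxia. The labels call the arrays biological replicates but do not say whether they came from separate litters or cultures, so the p-values rest on array-to-array spread that could be technical.

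Carriers of this family sit mostly in the inner mitochondrial membrane. Each moves a defined metabolite, nucleotide, cofactor or ion between matrix and cytosol, usually in exchange for another. In heart muscle the ADP/ATP and phosphate carriers feed and empty the ATP synthase, the aspartate/glutamate and oxoglutarate carriers move reducing equivalents inwards, and the acylcarnitine carrier brings fatty acids in for oxidation. The citrate carrier works the other way round, since it hands citrate to the cytosol, where it is split to acetyl-CoA for sterol and fatty acid synthesis.

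The array values were log2 expression after robust multi-array averaging. Array medians ran from 5.76 to 5.79 with FGF21 and from 5.81 to 5.83 in controls, and correlations between arrays over all genes from 0.993 to 0.997. All 12 cardiomyocyte markers written for the check had a row, with a mean level of the list from 11.05 to 11.11 with FGF21 and from 11.07 to 11.29 in controls. Of these, 3 were higher and 9 lower with FGF21 (5 and 7 after median centring). At an unadjusted p under 0.05 there was 1, lower, and 1 to 3 were lower with an array left out. Markers of fibroblasts were well represented too, with list means of 10.27 to 10.34 with FGF21 and 10.28 to 10.35 in controls. Of 10 measured 5 were higher and 5 lower, with 0 at that threshold. Of 8 smooth muscle and mural markers 3 were higher and 5 lower, with 1 higher and 2 lower at that threshold. The lower ones were Rgs5 at -0.49 ± 0.15 and Abcc9 at -0.45 ± 0.13, and the higher one Myh11 at 0.16 ± 0.06 (SE). Rgs5 was at -0.28 without FGF21 replicate 1 and Abcc9 at -0.28 without control replicate 1. Of 8 leukocyte markers 4 were higher and 4 lower, with 1 each way at that threshold. Of 14 endothelial markers measured, 12 were lower with FGF21, 8 of them at an unadjusted p under 0.05, beside 5.11% of all genes. Their list mean was 7.18 to 7.38 with FGF21 and 7.46 to 7.65 in controls. Of 6 epicardial markers 5 were higher, 3 of them at that threshold, beside 6.59% of all genes. That count was 1 without FGF21 replicate 2, and 2 without control replicate 1 or 2 or with quantile normalization applied again. The epicardial list means were 7.91 to 8.07 with FGF21 and 7.81 to 7.90 in controls. Of 5 erythroid markers only 1, Epb42, was measured, and it was dim, with a mean of 5.43 over all arrays. Its log2 difference was -0.21 ± 0.06 (SE), at an unadjusted p under 0.05, also with any 1 array left out. In such bulk samples fewer cells of a type and less RNA per cell cannot be told apart. The part of these marker differences in the values below was not tested.

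Start-site sequences of 4 members are given first, those of the citrate carrier Slc25a1 and the peroxisomal cofactor carrier Slc25a17, whose values were higher with FGF21, and of Slc25a29 and Slc25a47, whose values were lower. Each is the 250 bases before the start that RefSeq's promoter table gives, build GRCm38.p6, read 5′ to 3′ on the gene's strand. For Slc25a47 that start lies inside the annotated span of the gene, so its window is internal to the gene, and the windows of the others abut their genes. Slc25a1 lies on chr16:17928220-17928469 (minus strand), Slc25a17 on chr15:81360766-81361015 (minus strand), Slc25a29 on chr12:108835877-108836126 (minus strand) and Slc25a47 on chr12:108850879-108851128 (plus strand). Capitals mark matches, on either strand, to the NF-Y box CCAAT, the E-box CACGTG and the GC box GGGCGG.
Slc25a1: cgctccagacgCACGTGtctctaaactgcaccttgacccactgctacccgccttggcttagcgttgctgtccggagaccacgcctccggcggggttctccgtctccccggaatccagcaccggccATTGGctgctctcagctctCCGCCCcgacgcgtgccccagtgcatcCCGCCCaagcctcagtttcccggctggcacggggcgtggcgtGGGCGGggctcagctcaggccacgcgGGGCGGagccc
Slc25a17: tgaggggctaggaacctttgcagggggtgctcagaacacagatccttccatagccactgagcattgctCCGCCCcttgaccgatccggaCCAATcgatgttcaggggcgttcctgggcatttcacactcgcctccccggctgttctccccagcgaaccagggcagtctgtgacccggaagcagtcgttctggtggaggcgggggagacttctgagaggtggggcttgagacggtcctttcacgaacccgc
Slc25a29: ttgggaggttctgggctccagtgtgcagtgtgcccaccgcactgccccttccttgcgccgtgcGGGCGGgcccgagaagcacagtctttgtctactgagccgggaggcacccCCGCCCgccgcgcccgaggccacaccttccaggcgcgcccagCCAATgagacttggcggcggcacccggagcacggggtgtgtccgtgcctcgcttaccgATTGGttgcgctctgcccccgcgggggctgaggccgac
Slc25a47: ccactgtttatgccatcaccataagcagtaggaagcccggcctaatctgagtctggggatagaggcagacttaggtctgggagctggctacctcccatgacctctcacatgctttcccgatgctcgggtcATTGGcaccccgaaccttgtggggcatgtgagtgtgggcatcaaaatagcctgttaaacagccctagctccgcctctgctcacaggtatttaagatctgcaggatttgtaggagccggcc

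The Slc25a1 window held an E-box, 1 NF-Y box and 4 GC boxes, none of which overlapped another. The Slc25a29 window held 2 NF-Y boxes and 2 GC boxes, the Slc25a17 window 1 of each, and the Slc25a47 window a single NF-Y box. RefSeq windows were at hand for 36 of the 46 members, 46 windows in all because some genes have several starts. An E-box stood in 17.4% of them, against 6.82% of the 20611 windows of all measured genes, a GC box in 69.6% against 42.9%, and an NF-Y box in 45.7% against 34.8%. The sterol regulatory element TCACNCCAC stood in 1 of the 46 windows, that of the glutamate carrier gene Slc25a18, or 2.17%, against 1.04% of all windows. The letters TCAAGGTCA, to which the ERR nuclear receptors bind, were in 0 of the members' windows and in 0.296% of all windows. The palindromic element of NRF1, a regulator of mitochondrial genes, was in 0 of the members' windows and in 1.11% of all windows. A match in these letters is a description of the sequence and not a measured binding site.

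In the comparison of FGF21 with control, most carriers stayed close to their control level. The largest differences belonged to Slc25a1, the citrate carrier, 1.25-fold higher with FGF21, and Slc25a29, a carrier of basic amino acids, 1.26-fold lower. Of the 46 members, 21 were higher and 25 lower, where 47.8% of all genes were higher, and 29 lay within 0.1 of 0 on the log2 scale. The median log2 difference was -0.01 for the members and -0.01 for all genes, with quartiles of -0.07 and 0.09 for the members. After median centring of each array, 27 were higher and 19 lower.

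No member passed limma's threshold, an adjusted p under 0.05 over all genes (0 of 46, and 0% of all genes), nor an adjusted p under 0.1 (0 of 46, and 0.126% of all genes). At an unadjusted p under 0.05 there were 8 members, 6 higher and 2 lower, which is 17.4% of the family beside 11.7% of all genes (6.59% higher and 5.11% lower). Over all genes 56.3% of those at this unadjusted threshold were higher, and 79.9% after median centring, when 7 members were higher and 2 lower. Shares of all genes at this threshold, here and elsewhere, were not matched for expression level. In a fit of the 11090 brighter genes alone, 15.3% were at this threshold, and 75.2% of those were higher. Of the 31 members among these brighter genes, 6 were at it, 5 higher and 1 lower. The part of level in the family's share was not tested. The groups did not overlap for 9 members, 7 higher and 2 lower, or 19.6% of the family beside 17.1% of all genes (8.99% higher and 8.14% lower). The median size of a difference was 0.0745 in the family and 0.0718 over all genes, and the median spread within groups (SD, log2) was 0.0861 and 0.0918. Only 2 members differed by at least 0.3, a size reached by 2.16% of all genes.

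**Figure D1:**
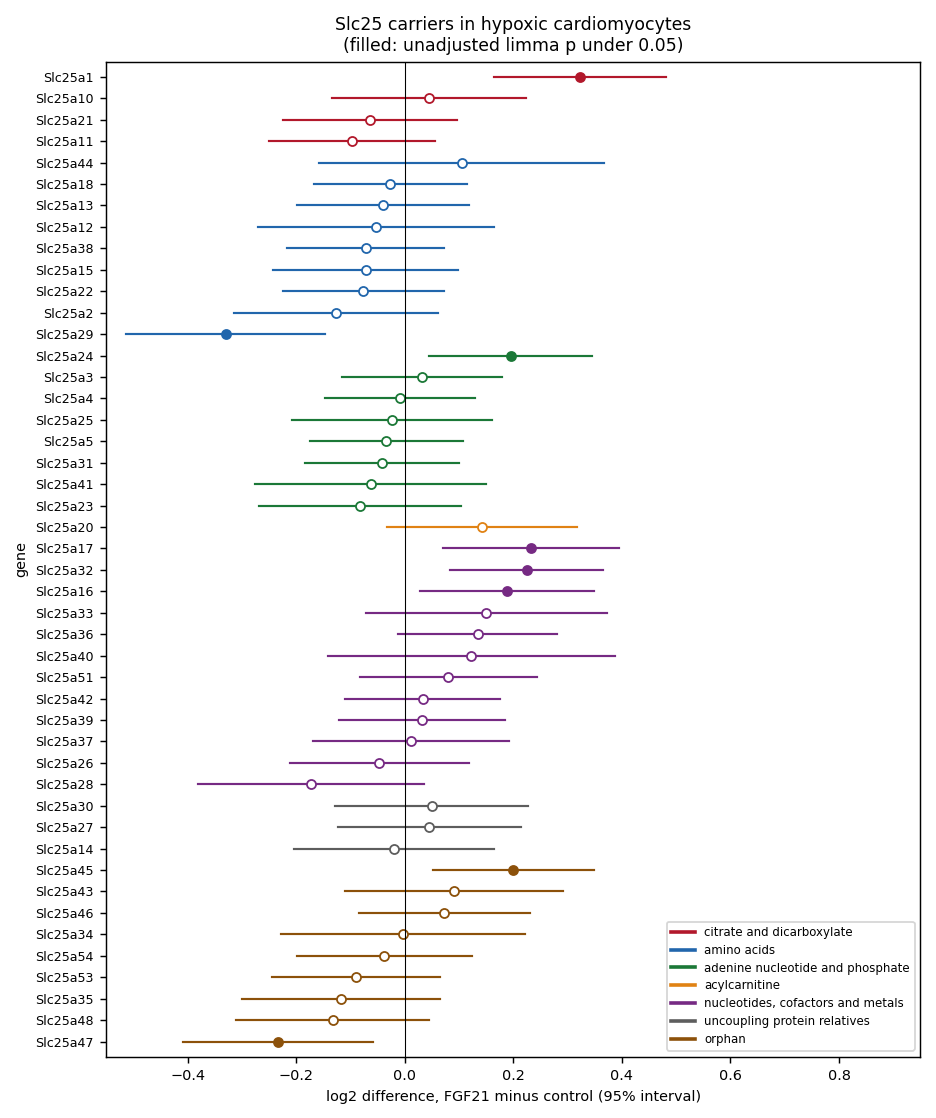
Log2 difference between FGF21 and control for each of the 46 carriers (x axis, circles, with 95% intervals as bars), grouped by what they carry. The 8 filled circles have an unadjusted limma p under 0.05, and most other intervals are centred near 0.

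Among the carriers of citrate and dicarboxylates, Slc25a1 (probe set 17328829), which exports citrate in exchange for malate, stood at 9.57, 9.50 and 9.40 on the FGF21 arrays and at 9.13, 9.25 and 9.13 on the control arrays. The groups did not overlap, and the nearest values were 9.40 with FGF21 and 9.25 without. The means were 9.49 ± 0.0860 with FGF21 and 9.17 ± 0.0688 without (SD, n = 3 each). The log2 difference of 0.32 ± 0.07 (SE) had a 95% interval of 0.16 to 0.48, or 1.12 to 1.40 as a fold. Its limma adjusted p of 0.177 over all genes, the smallest in the family, did not pass. With any 1 array left out, the difference ran from 0.28 to 0.37 and the limma adjusted p from 0.192 to 0.487. The other members of this group had smaller differences. Slc25a10, which exchanges malate or succinate for phosphate, differed by 0.04 ± 0.08 (SE), Slc25a11, the oxoglutarate carrier, by -0.10 ± 0.07, and Slc25a21, a carrier of oxodicarboxylates, by -0.06 ± 0.07.

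Values of genes of cytosolic citrate and acetyl-CoA use were set beside Slc25a1. They include Acss2, which does not start from citrate, and the transporter gene Slc13a5. The list of 10 genes was drawn up with the values of several of them already known, so its direction is no independent evidence. Of these, 7 were higher and 3 lower with FGF21, and 5 were at an unadjusted p under 0.05, all higher, beside 6.59% of all genes. Acly, which splits citrate to acetyl-CoA, stood at 9.32, 9.06 and 8.82 with FGF21 and at 8.53, 8.32 and 8.50 without, a log2 difference of 0.61 ± 0.12 (SE). Idh1, the cytosolic isocitrate dehydrogenase, averaged 9.31 ± 0.107 with FGF21 and 8.89 ± 0.153 without (SD, n = 3 each). In both genes every FGF21 array was above every control array. Acss2, which makes acetyl-CoA from acetate, was higher by 0.50 ± 0.09 (SE). Fasn, which builds fatty acids, was higher by 0.61 ± 0.13 and the carboxylase gene Acaca by 0.34 ± 0.08 (SE). Acaca is named here because it completes the 5, after its value was seen. None passed limma over all genes, with adjusted p-values from 0.119 to 0.201.

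Genes that supply citrate inside the matrix were mostly lower by small amounts. Of 13 measured, 4 were higher and 9 lower, and the median log2 difference was -0.03. At an unadjusted p under 0.05 there were 0, beside 11.7% of all genes. The split was 2 higher and 11 lower with quantile normalization applied again, when 2 were lower at that threshold, and 7 higher and 6 lower after median centring. Without control replicate 2 there were also 2 lower at that threshold. Idh3g, a subunit of the matrix isocitrate dehydrogenase, differed by -0.14 ± 0.07 (SE), Idh2 by -0.17 ± 0.09 and Dld, the dihydrolipoamide dehydrogenase, by 0.11 ± 0.08. Limma's adjusted p-values for the 3 were 0.485, 0.515 and 0.588. Whether Slc25a1 and the matrix genes differ from each other in their response was not tested.

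**Figure D2:**
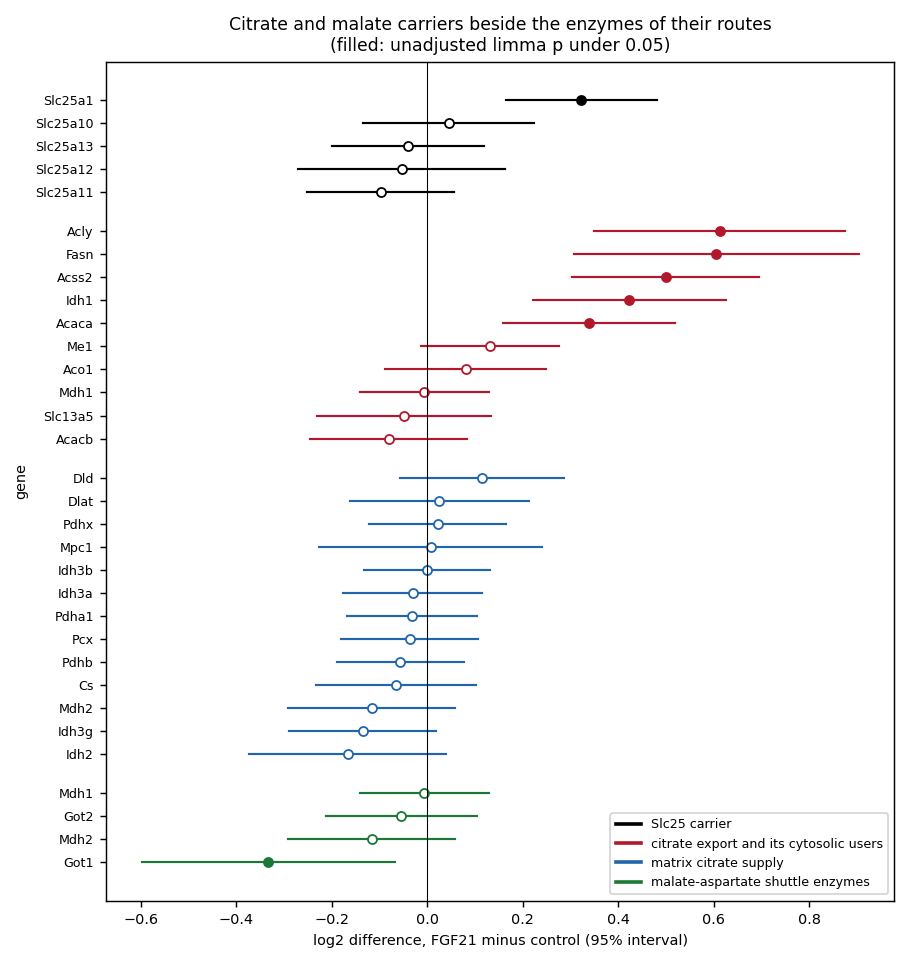
Log2 difference between FGF21 and control (x axis, with 95% intervals) for citrate and malate carriers, genes of cytosolic citrate and acetyl-CoA use, matrix genes of citrate supply and enzymes of the malate-aspartate shuttle. Slc25a1 and 5 of the 10 cytosolic genes are filled, for an unadjusted limma p under 0.05, on the higher side, and none of the 13 matrix genes is.

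The carriers of the malate-aspartate shuttle, which moves reducing equivalents into the matrix, had small differences beside their spread. Slc25a12 (aralar), the aspartate/glutamate carrier prominent in heart and brain, stood at 9.69, 9.64 and 9.64 with FGF21 and at 9.95, 9.61 and 9.57 without. Control replicate 1 was well above the other arrays, and the groups overlapped. Its log2 difference of -0.05 ± 0.10 (SE) turned to 0.07 without control replicate 1. Slc25a13 (citrin), the aspartate/glutamate carrier known from liver, stood at 7.22, 7.19 and 7.25 with FGF21 and at 7.36, 7.26 and 7.15 without. Its difference was -0.04 ± 0.07 (SE), with an interval of -0.20 to 0.12, and 0.01 without control replicate 1. Slc25a11 stood at 9.64, 9.53 and 9.54 with FGF21 and at 9.76, 9.64 and 9.60 without, and its difference was -0.05 with control replicate 1 left out. Here too the groups overlapped and control replicate 1 was the highest array.

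Of the 4 enzymes of the shuttle, all were lower with FGF21, while after median centring 3 were lower and 1 higher. At an unadjusted p under 0.05 there was 1, lower, beside 5.11% of all genes. The count of 1 was 0 without FGF21 replicate 2 and 2 without control replicate 2. Got1, the cytosolic aspartate aminotransferase, stood at 9.71, 9.66 and 9.66 with FGF21 and at 10.33, 9.82 and 9.88 without. Its log2 difference was -0.33 ± 0.12 (SE), with a limma adjusted p of 0.339, and control replicate 1 was again the highest array. Without control replicate 1 the Got1 difference was -0.17. Got2 differed by -0.05 ± 0.07, Mdh1 by -0.01 ± 0.06 and Mdh2 by -0.12 ± 0.08 (SE). Mdh1 is counted among the genes of cytosolic citrate and acetyl-CoA use as well, and Mdh2 among the matrix genes. The cardiomyocyte marker list was highest on the same array, at 11.29 in control replicate 1 and between 11.05 and 11.11 on all the others, and the part of that in these values was not tested.

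The carriers that serve ATP synthesis had differences close to 0. Slc25a4 (ANT1), the ADP/ATP carrier of heart and skeletal muscle, stood at 10.65, 10.71 and 10.68 with FGF21 and at 10.67, 10.74 and 10.64 without. Slc25a5 (ANT2), the ADP/ATP carrier of dividing cells, stood at 11.72, 11.62 and 11.60 with FGF21 and at 11.66, 11.68 and 11.69 without. Slc25a3, the phosphate carrier, stood at 9.90, 9.82 and 9.85 with FGF21 and at 9.91, 9.81 and 9.76 without. In all 3 the groups overlapped. The 95% intervals of the log2 difference were -0.15 to 0.13 for Slc25a4, -0.17 to 0.11 for Slc25a5 and -0.12 to 0.18 for Slc25a3, around differences of -0.01, -0.03 and 0.03. The signs of these differences depend on the scaling, since Slc25a4 and Slc25a5 were above 0 after median centring and Slc25a3 below 0 with quantile normalization applied again. Slc25a31 (ANT4), the ADP/ATP carrier of the germ line, was dim, with a mean of 5.60 beside a lowest array median of 5.76.

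Among the ATP-Mg/phosphate carriers, which adjust the adenine nucleotide pool of the matrix and are regulated by calcium, Slc25a24 had the largest difference. It stood at 9.06, 9.09 and 9.12 with FGF21 and at 8.89, 8.98 and 8.81 without, a log2 difference of 0.19 ± 0.07 (SE) with a limma adjusted p of 0.328. The groups did not overlap. The unadjusted threshold was missed without FGF21 replicate 3, at a difference of 0.18, and without control replicate 3, at 0.15. Slc25a23 differed by -0.08 ± 0.08, Slc25a25 by -0.02 ± 0.08 and Slc25a41, which lacks the calcium-binding domain, by -0.06 ± 0.10 (SE). Over the 8 adenine nucleotide and phosphate carriers 2 were higher and 6 lower, but 5 were higher and 3 lower after median centring.

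Slc25a20, which carries acylcarnitines into the matrix for oxidation, stood at 8.04, 8.08 and 8.04 with FGF21 and at 8.06, 7.91 and 7.77 without. The FGF21 arrays lay close together, and control replicate 1 was among them. The log2 difference was 0.14 ± 0.08 (SE), with an interval of -0.03 to 0.32 and a limma adjusted p of 0.513. It was 0.21 without control replicate 1, with a limma adjusted p of 0.423, and 0.07 without control replicate 3. Of 8 measured partners of the carnitine shuttle, 3 were higher and 5 lower, while 6 were higher and 2 lower after median centring. At an unadjusted p under 0.05 there were 0, beside 11.7% of all genes. Cpt2, the inner carnitine palmitoyltransferase, was lower on every FGF21 array than on any control array, with a log2 difference of -0.14 ± 0.07 (SE). Slc22a5, the carnitine importer of the cell membrane, differed by 0.13 ± 0.09, Acadvl by -0.08 ± 0.07 and Cpt1c by -0.03 ± 0.07 (SE).

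**Figure D3:**
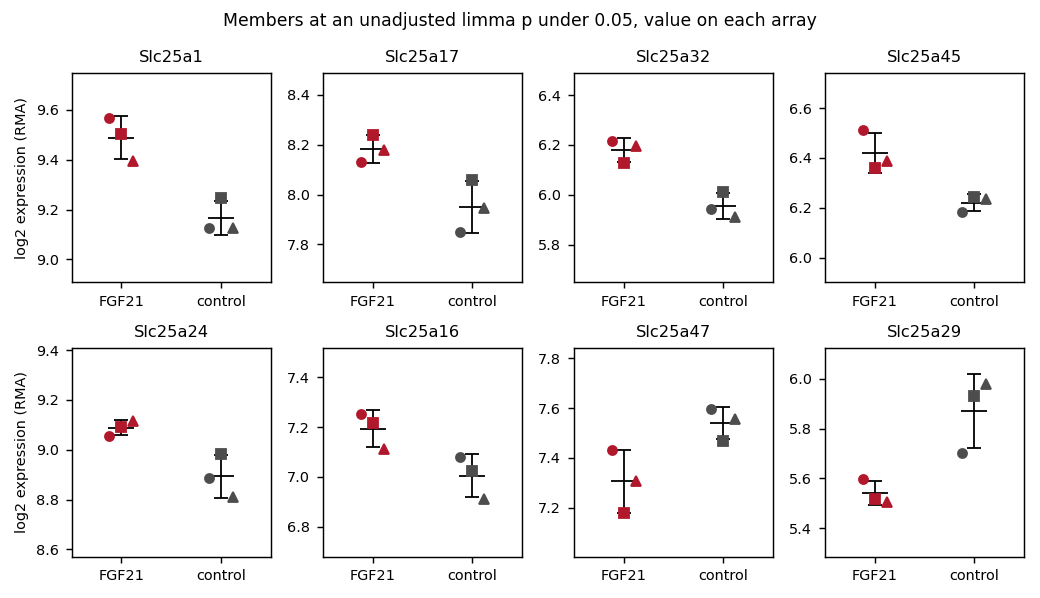
Log2 expression (y axis) on each FGF21 array (left, red) and control array (right, grey) for the 8 carriers at an unadjusted limma p under 0.05. Circles, squares and triangles are replicates 1, 2 and 3, the horizontal mark is the mean and the bar the SD (n = 3), and in each of the 8 panels the groups do not overlap.

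The carriers of nucleotides, cofactors and metals leaned to the higher side, with 10 of 12 above 0 (8 of 12 with quantile normalization applied again, 10 of 12 after median centring) and a median log2 difference of 0.10. Over all genes 47.8% were above 0, a share not matched for expression level. The median log2 difference was 0.0360 over the 11090 brighter genes and -0.00558 over all genes. The part of expression level in the lean of these carriers was not tested. Of the 12, 3 were higher at an unadjusted p under 0.05, beside 6.59% of all genes. That count was 2 without FGF21 replicate 2 or control replicate 3, and with FGF21 replicate 1, 2 or 3 left out the median was 0.15, 0.06 or 0.05. Slc25a17, the peroxisomal carrier of coenzyme A, FAD and NAD, stood at 8.13, 8.24 and 8.18 with FGF21 and at 7.85, 8.06 and 7.95 without. Its log2 difference was 0.23 ± 0.07 (SE), with a limma adjusted p of 0.290, and every FGF21 array was above every control array. Slc25a32, linked to folate and FAD transport, stood at 6.22, 6.13 and 6.20 with FGF21 and at 5.94, 6.01 and 5.91 without. Its difference was 0.22 ± 0.06 (SE), with a limma adjusted p of 0.251 and a range of 0.20 to 0.25 when any 1 array was left out. Slc25a16, linked to coenzyme A, stood at 7.25, 7.22 and 7.11 with FGF21 and at 7.08, 7.02 and 6.91 without, a difference of 0.19 ± 0.07 (SE). The groups of Slc25a16 were only just apart, and 3 of the 6 fits with an array left out did not reach the unadjusted threshold.

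The pyrimidine nucleotide carriers Slc25a33 and Slc25a36 differed by 0.15 ± 0.10 and 0.13 ± 0.07 (SE). Slc25a36 was above all controls on every FGF21 array without reaching the unadjusted threshold, and it reached it after median centring. Slc25a51, the NAD carrier, differed by 0.08 ± 0.07, Slc25a42, a coenzyme A carrier, by 0.03 ± 0.06, and Slc25a26, the S-adenosylmethionine carrier, by -0.05 ± 0.07 (SE). The glutathione carriers Slc25a39 and Slc25a40 differed by 0.03 ± 0.07 and 0.12 ± 0.12. Slc25a40 was the most variable member within its groups, at 7.16, 7.35 and 7.69 with FGF21 and at 7.23, 7.36 and 7.24 without. FGF21 replicate 3 alone lay above the controls, and the difference was below 0, at -0.02, without that array.

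The mitoferrins import iron for haem and iron-sulfur clusters. Slc25a37 (mitoferrin 1) stood at 6.70, 6.93 and 6.96 with FGF21 and at 6.89, 6.78 and 6.89 without, a log2 difference of 0.01 ± 0.08 (SE). Slc25a28 (mitoferrin 2) averaged 6.78 ± 0.187 with FGF21 and 6.95 ± 0.0667 without (SD, n = 3 each), a difference of -0.17 ± 0.09 (SE). The groups overlapped for both, and FGF21 replicate 1 was the lowest array for both. Without FGF21 replicate 1 the Slc25a37 difference was 0.09 and that of Slc25a28 was -0.07. With any 1 array left out the Slc25a28 difference ran from -0.24 to -0.07, and it reached the unadjusted threshold without FGF21 replicate 2. Of 10 measured genes of haem synthesis and mitochondrial iron use, 5 were higher and 5 lower. At an unadjusted p under 0.05 there was 1, higher, beside 6.59% of all genes. This was the glutaredoxin gene Glrx5 at 0.21 ± 0.08 (SE, limma adjusted p of 0.358). Glrx5 missed that threshold without FGF21 replicate 1 or 2 or control replicate 1 or 3. After median centring 7 were higher and 3 lower.

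The amino acid carriers leaned to the lower side, with 8 of 9 below 0 (7 of 9 with quantile normalization applied again or after median centring) and a median log2 difference of -0.07. Without control replicate 1, 6 of 9 were below 0 with a median of -0.05, and without FGF21 replicate 2 the median was -0.04. The share of all genes above 0 was 47.8%, again not matched for expression level. Means over all arrays ran from 5.13 for Slc25a2 to 9.68 for Slc25a12, and the part of level in this lean was not tested. Slc25a29 (probe set 17283923) stood at 5.60, 5.52 and 5.51 with FGF21 and at 5.70, 5.93 and 5.98 without. The groups did not overlap, and control replicate 1 was the control nearest to the FGF21 arrays. The means were 5.54 ± 0.0485 with FGF21 and 5.87 ± 0.149 without (SD, n = 3 each), and the log2 difference was -0.33 ± 0.08 (SE), with an interval of -0.51 to -0.15 and a limma adjusted p of 0.212. It was dim, with a mean of 5.71 over all arrays, under the lowest array median. Slc25a44, a carrier of branched-chain amino acids, was the exception to the direction at 0.10 ± 0.12. Its arrays were 6.76, 6.94 and 6.42 with FGF21, spread over more than the controls, which stood at 6.58, 6.69 and 6.54. The glutamate carriers Slc25a18 and Slc25a22 differed by -0.03 ± 0.06 and -0.08 ± 0.07, the ornithine carriers Slc25a2 and Slc25a15 by -0.13 ± 0.08 and -0.07 ± 0.08, and Slc25a38, which brings in glycine for haem synthesis, by -0.07 ± 0.06 (SE).

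Orphan carriers, without a firmly assigned substrate, went both ways, with 3 of 9 higher and 6 lower (5 and 4 with quantile normalization applied again, 4 and 5 after median centring). Slc25a45 stood at 6.51, 6.36 and 6.39 with FGF21 and at 6.18, 6.24 and 6.23 without, a log2 difference of 0.20 ± 0.07 (SE, limma adjusted p of 0.312). Slc25a47, known from liver, stood at 7.43, 7.18 and 7.31 with FGF21 and at 7.60, 7.47 and 7.56 without, a difference of -0.23 ± 0.08 (SE, limma adjusted p of 0.316) that missed the unadjusted threshold, at -0.17, without FGF21 replicate 2. The groups of both genes did not overlap, and the closest arrays of Slc25a47 were 7.43 and 7.47. The other orphans lay between -0.13 for Slc25a48 and 0.09 for Slc25a43, with Slc25a46, an outer membrane protein that shapes mitochondria, at 0.07 ± 0.07 (SE). The relatives of the uncoupling proteins, Slc25a14, Slc25a27 and Slc25a30, differed by -0.02, 0.04 and 0.05, each by less than its SE.

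**Figure D4:**
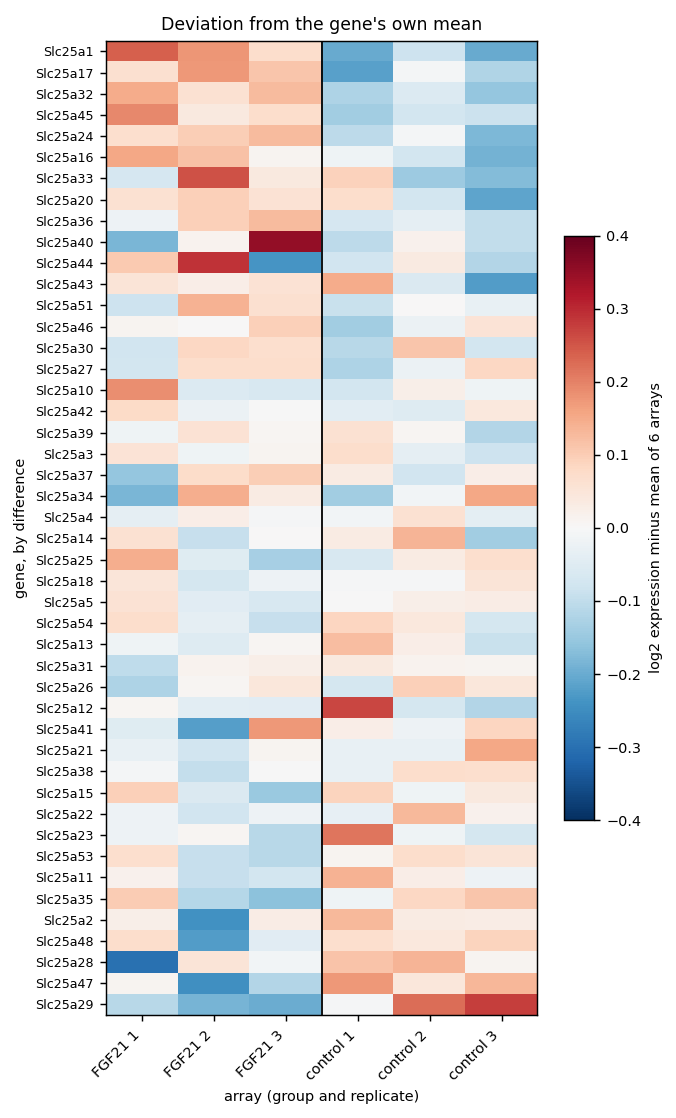
Deviation of each of the 46 carriers (rows, ordered by their difference) from its own mean over the 6 arrays, in log2 units, with FGF21 arrays on the left of the line and controls on the right. The top and bottom rows, such as Slc25a1 and Slc25a29, divide at the line, while single arrays carry the colour for genes such as Slc25a12 and Slc25a40.

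Slc25a29 and Slc25a47, the pair of members that were lower at the unadjusted threshold, are next to each other on chromosome 12, with no protein-coding gene between them in the RefSeq annotation of GRCm38.p6. The genes on either side had differences near 0. Yy1, a transcription factor gene, differed by 0.08 ± 0.06 and Wars, a tryptophanyl-tRNA synthetase gene, by -0.04 ± 0.07 (SE). Among 17258 pairs of adjacent protein-coding genes measured, 56, or 0.324%, had both genes lower at an unadjusted p under 0.05. The pair Slc25a29 and Slc25a47 was looked at because both were lower at that threshold, so this share is no test of the pair. The family has 3 other adjacent pairs, in which the differences were 0.19 for Slc25a24 and -0.04 for Slc25a54, -0.08 for Slc25a23 and -0.06 for Slc25a41, and -0.03 for Slc25a5 and 0.09 for Slc25a43.

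Related carriers were compared within each array in 12 pairs, by an exact two-sided permutation test in which 3 arrays against 3 cannot go below 0.1. The smallest p that the design allows was reached by 2 pairs. Slc25a23 minus Slc25a24 had a log2 difference of -0.28 between FGF21 and control, and Slc25a28 minus Slc25a37 of -0.18, each at an exact p of 0.1 and 0.6 after Benjamini-Hochberg adjustment over the 12 pairs. The ADP/ATP carriers Slc25a4 and Slc25a5 differed in their response by 0.03 (exact p = 0.7), and the aspartate/glutamate carriers Slc25a12 and Slc25a13 by -0.01 (exact p = 0.9). For the other 8 pairs the exact p lay between 0.2 and 0.8.

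Of 21 measured transporters and channels of mitochondria outside the Slc25a symbols, 13 were higher and 8 lower, while 9 were higher and 12 lower with quantile normalization applied again. At an unadjusted p under 0.05 there were 2 higher and 1 lower, beside 6.59% and 5.11% of all genes. With quantile normalization there were 0 higher and 1 lower. The count of 2 higher was 0 without FGF21 replicate 2 or control replicate 1 and 1 without FGF21 replicate 1 or control replicate 3. Micu2, a regulator of the calcium uniporter, was higher by 0.17 ± 0.06, Abcb10, an exporter of the inner membrane, by 0.15 ± 0.06, and Ccdc51, a subunit of the mitochondrial potassium channel, had a difference of -0.34 ± 0.10 (SE). Limma's adjusted p-values for the 3 were 0.343, 0.402 and 0.267, and Ccdc51 was at -0.22 without FGF21 replicate 3. Sfxn5, a sideroflexin, differed by -0.13 ± 0.06. The uncoupling proteins Ucp1 and Ucp3, members of the same protein family under other names, differed by -0.12 ± 0.07 and 0.04 ± 0.09, and the outer membrane relatives Mtch1 and Mtch2 by 0.11 ± 0.08 and -0.03 ± 0.06 (SE). Ucp1, Ucp3, Mtch1 and Mtch2 are named for that kinship, after their values were seen.

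A list of genes of mitochondrial import and content stood on the higher side. Of 19 genes 17 were above 0 (15 with quantile normalization applied again), beside 47.8% of all genes, a share not matched for expression level. At an unadjusted p under 0.05 there were 6, all higher, beside 6.59% of all genes, and the median log2 difference was 0.09. The count of 6 higher was 1 without FGF21 replicate 3 or control replicate 1, 2 without FGF21 replicate 2 or control replicate 3, 4 without FGF21 replicate 1, 7 without control replicate 2, and 1 with quantile normalization applied again. The median of the list was 0.18 without control replicate 2 and 0.07 to 0.13 without any other array. Hspd1, the matrix chaperonin, stood at 8.96, 8.99 and 8.94 with FGF21 and at 8.73, 8.83 and 8.76 without. The import receptors Tomm20 and Tomm22 were higher by 0.17 ± 0.07 and 0.20 ± 0.09, and Timm22, which inserts carriers of the Slc25 family into the inner membrane, by 0.17 ± 0.07 (SE). Tomm22 was at 0.10 without control replicate 1 and Timm22 at 0.10 without FGF21 replicate 1. Limma's adjusted p-values were 0.311 for Hspd1 and from 0.410 to 0.418 for the import genes. Of 11 measured partners of folate and nucleotide carriers, 7 were higher and 4 lower. Only Dut, the dUTPase, at 0.30 ± 0.08 (SE), was at an unadjusted p under 0.05, where 6.59% of all genes were higher. Mthfd1l differed by 0.09 ± 0.06, Flad1, the FAD synthetase, by -0.11 ± 0.09 and Coasy, the coenzyme A synthase, by -0.08 ± 0.07 (SE).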

How the data were processed

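The deposited table holds log2 expression, for which the submitters' processing notes name RMA, affy and R 3.2.2. This method subtracts background, forces arrays onto one distribution and summarises probes. A general shift thus tends to be removed, and dim genes show damped differences. A small shift remained in the array medians, which were 5.76 to 5.79 with FGF21 and 5.81 to 5.83 in controls. These medians lay below the middle of the named genes, among which a mean of 5.79 (Slc25a34) stood at percentile 40.1. Over the named genes the median log2 difference was -0.00558, so the shift was not seen there. Median centring of the arrays moved that median to 0.0305. Neither chip definition nor genome build is given in the labels. The table had 41345 rows and 6 columns, and groups come from the sample titles. Rows were named through the platform annotation, 23521 of them with 1 symbol, and for the 1082 genes with several rows the row of highest mean was used. FGF21 minus control was fitted over all 22180 genes in R 4.3.3 by lmFit and eBayes of limma 3.58.1 (two-sided, with no covariate), with Benjamini-Hochberg adjustment over all genes. Intervals are at 95%. The number of arrays limits the precision. Of the pairs of arrays, 0 were identical, although 306 rows, Slc25a1 among them, have equal values on control replicates 1 and 3. Equal values occur on other arrays too, and no count is given for other pairs. Slc25a21, for example, stood at 5.03813 on FGF21 replicate 1 and on control replicates 1 and 2. The fit was tested on simulated data with known changes.

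Members at an unadjusted p under 0.05, and Slc25a1, Slc25a3, Slc25a4, Slc25a5, Slc25a11, Slc25a12, Slc25a13, Slc25a20 and Slc25a37, were given on all arrays, with others added where an array stood apart, and up to 4 genes of smallest p were named per list. Members, lists, tests and alternatives were chosen with earlier results of these data known. The alternatives were a replicate block, each array left out, the mean of a gene's rows, dim genes left out, quantile normalization applied again, median centring, and a trend and robust prior. The choice of sequences and motifs, the comparison of adjacent genes and the counts of whole lists under other scalings or with an array left out were added after seeing the data.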

Additional observations from a re-analysis of the deposited data

How the results depend on the processing

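The number of members at an unadjusted p under 0.05 was 8 and ran from 6 (without control replicate 3) to 11 (without FGF21 replicate 1 or control replicate 1) with 1 array left out. No member passed an adjusted p under 0.05 in any setting, and 1, Slc25a1, passed 0.1 when genes below the median level were left out (limma adjusted p of 0.0936). The differences of Slc25a1, Slc25a17, Slc25a29, Slc25a32 and Slc25a45 reached an unadjusted p under 0.05 with any 1 array left out; that filter on dim genes removes Slc25a29 and Slc25a32. With quantile normalization applied again, Slc25a16 and Slc25a24 missed that threshold. Over all genes, the count at an adjusted p under 0.05 was 0, and 0 to 2 with an array left out, 2 with the mean of a gene's rows, 58 with dim genes left out, 5 with quantile normalization applied again, 12 after median centring and 16 with a trend and robust prior. Under 0.1 it was 28, and 0 to 16 with an array left out, 156, 6, 73 and 83 with dim genes left out, quantile normalization, centring and the trend prior. The median of the members was -0.0143, from -0.0140 to 0.000566 with an array left out, 0.0450 with dim genes left out, -0.00106 with quantile normalization applied again and 0.0218 after median centring. The median of all genes moved with these settings too. It was -0.00558, and 0.0360 with dim genes left out, -0.00183 with quantile normalization applied again and 0.0305 after median centring. Signs turned for members near 0. With 1 array left out, the differences ran from -0.00123 to 0.0741 for Slc25a3 (below 0 without control replicate 3), from -0.0305 to 0.0196 for Slc25a4 (0.00604 without FGF21 replicate 1, above 0 also without control replicate 2), from -0.126 to 0.0664 for Slc25a12 and from -0.0952 to 0.0118 for Slc25a13 (both above 0 without control replicate 1). Slc25a37 ran from -0.0357 to 0.0908 (-0.0234 and -0.0357 without FGF21 replicates 2 and 3, -0.0257 without control replicate 2). Slc25a4 was at 0.0271 and Slc25a5 at 0.00175 after centring, and Slc25a3 at -0.00678 and Slc25a37 at -0.00242 with quantile normalization. The causes were not tested. The numbers of the replicates are shared between groups. Deviations from the group means correlated at 0.103, 0.158 and 0.00653 in the 3 same-numbered pairs. In these deviations 4 of the 6 arrays correlated best, among arrays of the other group, with their own number. This hints only weakly at pairing, since 1 of the 3 correlations was near 0 and deviations within a group are not independent. The labels name no shared litter or culture. The fit without the block was therefore kept. With a replicate block 46 genes had an adjusted p under 0.1, against 28, and 8 members had an unadjusted p under 0.05.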
